A study of Caenorhabditis elegans with 80 samples.

Results

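The gene described here is col-183 (WBGene00000756), a member of the col family of collagens of the nematode Caenorhabditis elegans, and it is 1 of 46904 genes in the count table. It was chosen because earlier results on the same libraries had shown a high level in old worms and a low level in a daf-16 mutant. Its levels and differences are therefore given as a description, with standard deviations or standard errors and without a test. In the WBcel235 genome col-183 lies on chromosome X, from 13466643 to 13467764, on the minus strand. It has 2 exons of 196 and 877 bases, separated by an intron of 49 bases. The annotation gives a 5′ untranslated region of 28 bases, a 3′ untranslated region of 94 bases and 948 coding bases for 316 amino acids.

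Cuticle collagens are made mainly by the hypodermis, the epidermal layer under the worm's surface, and are secreted, processed and cross-linked into the cuticle, the collagen-rich outer coat. Most are known for being made in waves that go with each larval moult, and adults continue to make some of them. DAF-16 is the FOXO-type transcription factor that acts below the insulin/IGF-1 receptor DAF-2 and is held out of the nucleus when that receptor signals.

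The study measured RNA from whole hermaphrodites by paired-end sequencing in 80 libraries. Wild-type worms of the strain N2 were harvested at day 6, day 8, day 11, day 14 and day 18, and each age has 6 libraries. The strain CF1038, which carries daf-16(mu86), was harvested at day 6 only and has 20 libraries. A further 30 N2 libraries, also from day 6 and here called the second N2 set, are numbered N2_1 to N2_30 and served as the wild type for CF1038. The labels do not say from which stage the days were counted. All worms were kept at 20 °C on agar plates with the bacterium OP50-1 and streptomycin, were moved to new plates every other day as adults, and received FUDR, a drug that blocks DNA synthesis and is used to prevent offspring. Worms were washed off plates together, so a library is a pool of animals. The labels do not say whether libraries of a group came from separate cultures, so the spread between them may be technical in part.

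Library totals, in units of 1e+06 counts, ran from 34.4 to 44.2. The labels give all libraries the same batch value. In the second N2 set the libraries nevertheless ran with their number, and component 1 of a principal component analysis without col-183 took 52 percent of the variance. Its scores ran from -43.5 to -4.62 in libraries 1 to 10 and from -5.85 to 31.7 in libraries 21 to 30. The targeted gene daf-16 stood at 158 ± 15.8 CPM in the second N2 set and at 90.5 ± 8.45 CPM in CF1038 (SD, n = 30 and 20), where CPM are scaled counts per 1e+06 counts of a library. The CF1038 libraries, at 71.2 to 101.9 CPM, lay below all N2 libraries of that set, at 125.7 to 185.2 CPM (log2 difference -0.81, SE 0.04, edgeR adjusted p = 2.8e-23). The counts are per gene and also cover the parts of daf-16 outside the deletion.

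At day 6 the first N2 set gave col-183 levels of 28.6, 12, 21.9, 5.46, 8.90 and 6.24 CPM in libraries 1 to 6. The day 8 libraries held 69.5, 90.6, 88.0, 34.2, 46.3 and 46.0 CPM in the same order. Every day 8 library thus lay above every day 6 library, and at both ages libraries 1 to 3 lay above libraries 4 to 6. The means were 13.9 ± 9.38 CPM at day 6 and 62.4 ± 23.8 CPM at day 8 (SD, n = 6 each), a ratio of 4.5. The edgeR fit put the log2 difference at 2.15 with an SE of 0.31, the 10th largest rise among 16710 genes.

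The highest levels were those of days 11 and 14. At day 11 the 6 libraries held 490.0, 564.2, 365.4, 371.0, 303.9 and 413.6 CPM. At day 14 they held 430.3, 537.1, 474.1, 370.9, 499.0 and 340.4 CPM. These ages overlapped over most of their range and all 12 libraries lay above every day 8 library. The means were 418 ± 94.4 CPM at day 11 and 442 ± 76.0 CPM at day 14 (SD, n = 6 each), which is 30.2 and 31.9 times the mean of day 6. Against day 6 the log2 differences were 4.90 (SE 0.35) at day 11, the 5th largest rise of 16710 genes, and 4.95 (SE 0.35) at day 14, the 148th largest. The step from day 8 to day 11 measured 2.75 on the log2 scale (SE 0.32), and that from day 11 to day 14 measured 0.05 (SE 0.30), smaller than its standard error.

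Day 18 levels were lower again, at 190.8, 229.2, 165.6, 140.4, 129.3 and 246.4 CPM. All 6 libraries lay below every day 14 library and above every day 8 library. The day 18 mean of 183.6 ± 47.4 CPM (SD, n = 6) was 0.415 times that of day 14, with a log2 difference of -1.23 (SE 0.30). Against day 6 the level was still 13.2 times higher (log2 difference 3.72, SE 0.33), the 987th largest rise at that age.

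**Figure D1:**
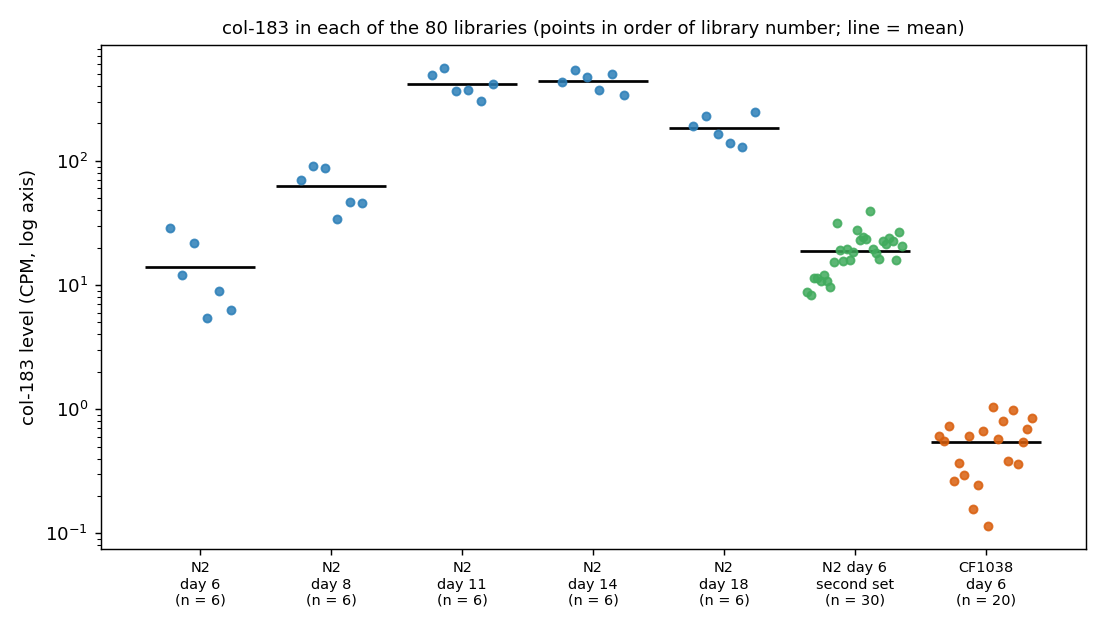
Level of col-183 in CPM on a log axis for each of the 80 libraries, with points in order of library number within a group and a line at the group mean. Days 11 and 14 lie highest with overlapping values, and all CF1038 libraries lie below all N2 libraries, with 1.03 CPM as the highest CF1038 value and 5.46 CPM as the lowest N2 value.

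In the second N2 set at day 6, col-183 ran from 8.32 CPM through a median of 18.9 CPM to 39.1 CPM over 30 libraries. In CF1038 the lowest of 20 libraries held 0.115 CPM, the median was 0.566 CPM and the highest held 1.03 CPM. No CF1038 library reached the lowest N2 library. The means were 18.8 ± 7.17 CPM (SD, n = 30) and 0.542 ± 0.264 CPM (SD, n = 20), so the wild-type mean was 34.7 times that of the mutant. The log2 difference of CF1038 against N2 was -5.12 with an SE of 0.21, the 4th largest fall among 16126 genes. Against the 6 libraries of the first N2 set, the ratio of means was 25.6 and the log2 difference -4.67.

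The mutant signal was low but above 0 in every library. The rounded counts of col-183 in CF1038 lay between 5 and 41 per library, against 308 to 1480 in the second N2 set. The lowest CF1038 count, 5, has a 95 percent Poisson interval of 1.62 to 11.7, and the highest, 41, one of 29.4 to 55.6. These intervals cover counting error only. Even the upper bound of the highest CF1038 library was under the lowest rounded count among all N2 libraries, which was 210.

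Ordered by mean, the groups ran from day 14 and day 11 through day 18, day 8, the second N2 set and the first N2 set at day 6 to CF1038. The ranges of days 14 and 11 overlapped, as did those of day 8 with the second N2 set and of both N2 sets at day 6. The other neighbours in the order did not overlap. The overlap of day 8 with the second N2 set came from day 8 library 4, at 34.2 CPM, against N2 library 20, at 39.1 CPM. The second N2 set stood 1.36 times above the first (log2 difference 0.45, SE 0.28), and the day 8 mean was 3.32 times that of the second set. Age and library set cannot be told apart in that last comparison.

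The differences in col-183 between libraries of 1 group were themselves large at the young ages. The SD of log2(CPM + 1) was 0.89 at day 6 and 0.56 at day 8, larger than that of 99.6 and 99.4 percent of the genes with a mean of at least 5 CPM. At day 14 it was 0.25, with 35.3 percent of genes below it, and at day 18 it was 0.37, with 84.7 percent below. Libraries 1 to 3 averaged 20.9 CPM at day 6, against 6.87 CPM in libraries 4 to 6. The same split gave 82.7 and 42.2 CPM at day 8, 473 and 363 CPM at day 11, 480.5 and 403 CPM at day 14, and 195 and 172 CPM at day 18. As a ratio, the gap between libraries 1 to 3 and libraries 4 to 6 was thus widest at day 6 and narrowest at day 18. What parts these libraries is not in the labels and was not tested. Within libraries 1 to 3 alone, the log2 differences from day 6 were 1.97, 4.48, 4.44 and 3.22 at days 8, 11, 14 and 18. Within libraries 4 to 6 alone they were 2.61, 5.69, 5.85 and 4.61.

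In the second N2 set, libraries 1 to 9 were the lowest, from 8.32 to 15.3 CPM, while library 10 reached 31.9 CPM. Libraries 1 to 10 averaged 13 ± 6.90 CPM, libraries 11 to 20 averaged 22.7 ± 6.96 CPM and libraries 21 to 30 averaged 20.7 ± 3.44 CPM (SD, n = 10 each). Among CF1038 libraries the averages were 0.451 CPM for numbers 1 to 10 and 0.634 CPM for numbers 11 to 20. The difference between strains exceeded each of these gaps, and the log2 difference was -5.32 without N2 libraries 1 to 10 and -5.03 without N2 libraries 21 to 30.

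Per length, col-183 ranked higher among the collagens at the older ages than at day 6. As CPM per kilobase of exon, its level was 12.9 at day 6, which ranked 47th of 175 collagen genes with a count (the col genes and the body-shape collagens below). It ranked 24th at day 8 with 58.2 CPM per kilobase, 15th at day 11 with 390 and at day 14 with 412, and 13th at day 18 with 171. In the second N2 set it ranked 60th with 17.5 CPM per kilobase, and in CF1038 134th with 0.506. The highest collagen in every group was col-119, at 2837 to 7130 CPM per kilobase. In the summed CPM of these 175 genes, the part due to col-183 went from 0.0544 percent at day 6 to 1.29 percent at day 14 and 1.16 percent at day 18. It was 0.0916 percent in the second N2 set and 0.00296 percent in CF1038.

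More of the other collagens were lower than higher at the older ages. Of 134 tested col genes, col-183 included, 7 were higher and 47 lower at day 8 than at day 6 by edgeR (adjusted p under 0.05), with a median log2 difference of -0.42. Among all tested genes 5.55 percent were called higher and 6.12 percent lower at day 8, with a median of -0.02. At day 11 there were 20 higher and 58 lower, against 24.1 and 19.9 percent of all genes. At day 14 there were 22 higher and 68 lower, against 29.8 and 26.9 percent. At day 18 there were 22 higher and 78 lower, against 29 and 28 percent, with a median of -0.96. The counts at day 8 depended on the day 6 libraries, with 21 higher and 76 lower when all 36 N2 libraries of day 6 were used, and 2 higher and 30 lower in libraries 4 to 6 alone. These counts weigh every gene alike, whatever its level. The summed CPM of all 156 col genes was 25630 ± 3474 at day 6, 32710 ± 3244 at day 8 and 32770 ± 4309 at day 11. It was 34730 ± 7697 at day 14 and 16090 ± 4622 at day 18 (SD, n = 6 each), so its mean was below that of day 6 only at day 18.

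Set beside the other collagens tested, col-183 had the largest positive estimate at each of the 4 older ages, out of 153. The next were col-143 at day 8 (0.82), col-138 at day 11 (1.34), col-141 at day 14 (1.79) and col-87 at day 18 (3.05). The last of these is a gene of low counts, which went from 0.114 to 0.986 CPM. In CF1038 the col-183 estimate of -5.12 was the lowest of 159 collagens, followed by col-50 at -1.85, which stood at 0.461 CPM in N2 and 0.125 CPM in CF1038. The largest positive estimate in CF1038 was that of col-43, at 1.02. Since the gene was picked for these differences, its place in the family is a description.

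**Figure D2:**
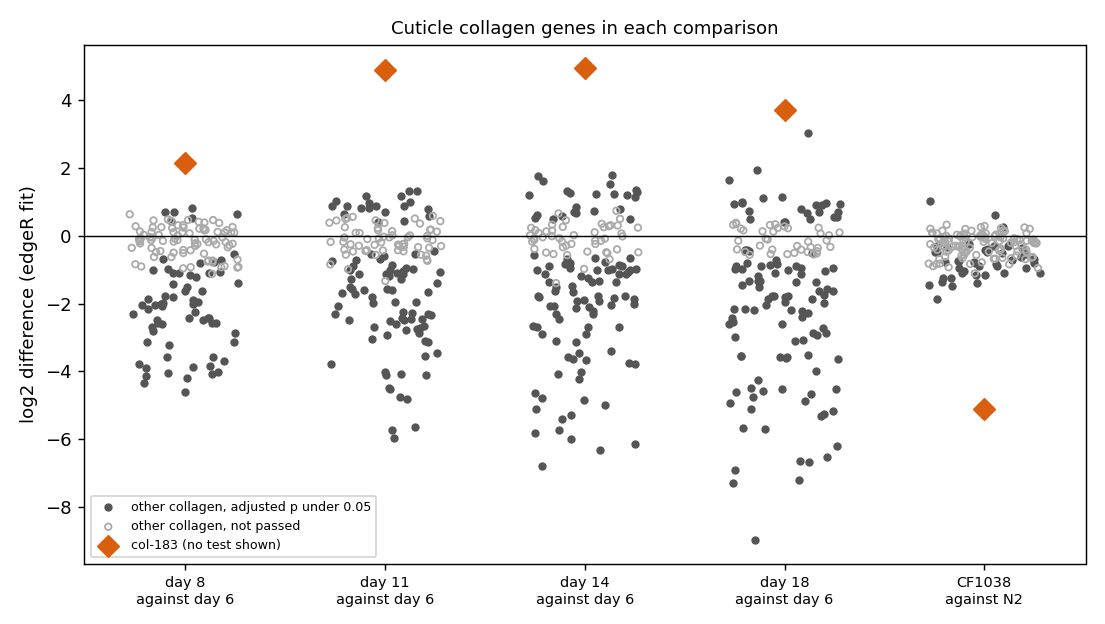
Log2 differences from the edgeR fits (vertical axis) for the collagen genes tested at each older age against day 6 and in CF1038 against N2, with col-183 as a diamond, other collagens with an adjusted p under 0.05 as filled points and the rest as open points. At day 11 col-183 lies at 4.90 and the next collagen at 1.34, and in CF1038 it lies at -5.12 and the next at -1.85.

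The 19 body-shape collagens, genes such as dpy-13, rol-6 and dpy-4 whose mutants are short or rolling, were tested alongside. At day 8 0 of the 19 were higher and 14 lower, with a median log2 difference of -1.51. Among all tested genes 5.55 percent were called higher and 6.12 percent lower at that age. At day 18 2 of the 19 were higher and 13 lower, with a median of -1.61, against 29 and 28 percent of all tested genes. An unadjusted edgeR p under 0.05 and DESeq2 likewise gave 0 higher at day 8. The 2 higher at day 18 became 1 to 3 with single libraries left out and 0 with all 36 N2 libraries. The sharpest of these falls at day 8 by adjusted p was dpy-13, from 13.6 ± 8.54 to 1.14 ± 0.294 CPM (log2 difference -3.58, SE 0.34, adjusted p = 5.22e-08, n = 6 each). Among the col genes, col-107 fell at day 8 from 16.9 ± 6.40 to 2.43 ± 0.571 CPM (log2 difference -2.81, SE 0.22, adjusted p = 7.48e-10). At day 18 col-160 had fallen from 481 ± 121.9 to 17.9 ± 7.83 CPM (log2 difference -4.76, SE 0.28, adjusted p = 6.83e-15). The day 6 level of this class differed between sets, with body-shape collagens summing to 192.5 CPM (131.5 to 281.3) in the first N2 set and 705.5 CPM (160.4 to 1384) in the second.

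In CF1038, 3 of 140 tested col genes were higher and 41 lower, col-183 among the latter, with a median log2 difference of -0.34. Among all tested genes 18 percent were called higher and 20.7 percent lower. This count followed the choice of N2 libraries. It was 7 lower without N2 libraries 1 to 10, 78 lower without N2 libraries 21 to 30, and 80 lower with libraries 1 to 20 of each strain and the library number as a block. The body-shape collagens gave 0 higher, also with DESeq2 and with an unadjusted edgeR p under 0.05, and 2 lower of 19. Their lower count was 1 without N2 libraries 1 to 10, 14 without N2 libraries 21 to 30 and 17 with the block.

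Some other collagens were also called both higher with age and lower in CF1038. Among the col genes and body-shape collagens other than col-183, 6 were higher at day 8 and 42 were lower in CF1038. With col-183, 151 collagens were tested in both fits. The 42 include col-36, which was tested in the CF1038 fit only, and col-87, higher from day 11 on, was tested in the age fit only. The lists had col-181 and col-34 in common, which is 2 of the 6 and 2 of the 42. At day 11 the lists shared 5 of 19, at day 14 they shared 8 of 23 and at day 18 they shared 7 of 23. Those are 33.3, 26.3, 34.8 and 30.4 percent of the collagens higher at days 8, 11, 14 and 18. These shares are close to 28 percent, which is the 42 lower in CF1038 over the 150 other collagens tested in both fits. The day 8 calls of both genes were lost in libraries 4 to 6 alone (0.74 for col-181 and 0.35 for col-34), and that of col-34 also with the replicate block (0.63). The level of col-181 was 1656 ± 179 CPM at day 6, 2735 ± 198 at day 8 (log2 difference 0.70, SE 0.15, adjusted p = 0.0028), 4278 ± 1157 at day 14 (1.32, adjusted p = 1.7e-08) and 2216 ± 516 at day 18 (0.41, adjusted p = 0.0233, or 0.18 and not passed in libraries 4 to 6 alone). In CF1038 it was 1255 ± 308 CPM against 1484 ± 290 in N2 (log2 difference -0.25, SE 0.09, adjusted p = 0.0338), a call that was lost with RLE scaling (-0.23), without the count filter (-0.22), with the block (-0.22) and without N2 libraries 21 to 30 (-0.19). For col-34 the CF1038 difference was -0.29 (SE 0.10, adjusted p = 0.0179), a call lost without N2 libraries 1 to 10 (-0.23). Both are much smaller than the -5.12 of col-183, whose difference from them was not tested.

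The genes that mature collagens moved in both directions. This list of 23 tested genes holds prolyl hydroxylase subunits (dpy-18, phy-2), protein disulfide isomerases, the protease bli-4 and the cross-linking oxidase bli-3. At day 8 4 were higher and 0 lower (0 lower by DESeq2 and 1 by an unadjusted edgeR p under 0.05), and at day 14 16 were higher and 3 lower. The shares higher and lower were 17.4 and 0 percent at day 8 and 69.6 and 13 percent at day 14. Among all tested genes they were 5.55 and 6.12 percent at day 8 and 29.8 and 26.9 percent at day 14. The largest of the named rises at day 8 was bli-3, from 22.2 ± 2.81 to 29.3 ± 3.57 CPM (log2 difference 0.38, SE 0.12, adjusted p = 0.0371), followed by bli-4 at 0.36 (adjusted p = 0.017) and dpy-18 at 0.31 (adjusted p = 0.00675). With all 36 N2 libraries as day 6 the list gave 8 higher and 5 lower at day 8, and in libraries 4 to 6 alone it gave 0 higher. None of bli-3, bli-4 and dpy-18 passed there, where their log2 differences were 0.44, 0.22 and 0.34. At day 18 8 were higher and 2 lower, among them the prolyl hydroxylase gene phy-3, from 1.27 ± 0.323 to 3.63 ± 1.07 CPM (log2 difference 1.5, SE 0.20, adjusted p = 1.67e-07), and fkb-4 of the FKBP-type peptidyl-prolyl isomerases, from 1.69 ± 0.397 to 0.703 ± 0.240 CPM (log2 difference -1.28, SE 0.24, adjusted p = 2.81e-05). In CF1038 3 were higher and 11 lower, among the latter pdi-2, from 521 ± 62.7 to 402.5 ± 65.0 CPM (log2 difference -0.38, SE 0.06, adjusted p = 6.75e-07). Without N2 libraries 1 to 10 the list gave 0 higher and 6 lower, and without N2 libraries 21 to 30 it gave 5 and 14. In the main fits the shares higher and lower were 34.8 and 8.7 percent at day 18 and 13 and 47.8 percent in CF1038. Among all tested genes they were 29 and 28 percent at day 18 and 18 and 20.7 percent in CF1038.

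Markers of the hypodermis and of other tissues were measured in the same libraries. In whole worms, fewer cells of a type and less RNA per cell cannot be told apart. The 21 hypodermis markers other than collagens summed to 404.5 CPM at day 6, with single libraries from 387.8 to 435.9. The older ages had means of 382 CPM (range 368 to 393.5) at day 8, 388 (range 348 to 423) at day 11, 408 (range 339 to 462) at day 14 and 396 (range 359.5 to 446) at day 18. They summed to 553 CPM in the second N2 set (373 to 753) and to 497 CPM in CF1038 (354 to 732). None of the 21 had a mean of 0 in any group. At day 8 0 were higher and 7 lower, at day 18 3 were higher and 5 lower, and in CF1038 0 were higher and 3 lower. The shares lower were thus 33.3, 23.8 and 14.3 percent, against 6.12, 28 and 20.7 percent of all tested genes. The shares higher were 0, 14.3 and 0 percent, against 5.55, 29 and 18 percent. DESeq2 and an unadjusted edgeR p under 0.05 also gave 0 higher at day 8 and in CF1038. The lower counts moved with the libraries used. At day 8 there were 15 with all 36 N2 libraries and 0 in libraries 4 to 6 alone, and in CF1038 there were 2 without N2 libraries 1 to 10, 15 without N2 libraries 21 to 30 and 17 with the block. Body wall muscle markers, 12 genes, went from 4543 CPM at day 6 (range 3264 to 5426) to 1367 CPM at day 18 (range 943 to 1662). All 12 were lower at day 18, against 28 percent of all tested genes. Intestine markers, 12 genes, summed to 3280 CPM at day 6 (range 3023 to 3670), 4240 at day 8 (range 3665 to 4862), 4426 at day 11 (range 3051 to 5121), 4738 at day 14 (range 3021 to 8096) and 1450 at day 18 (range 750.3 to 2150). This sum was thus highest at day 14 and lower at day 18, as were the level of col-183 and the summed col genes (34730 and 16090 CPM). As single genes, 2 of the 12 intestine markers were higher and 4 lower at day 14 than at day 6, with a median log2 difference of -0.11. Those are 16.7 and 33.3 percent, against 29.8 and 26.9 percent of all tested genes. At day 18 0 were higher and 11 lower, or 0 and 91.7 percent, against 29 and 28 percent. In the second N2 set the intestine sum was 3519 CPM and in CF1038 3587 CPM. The sum of neuron markers, 13 genes, also rose and then fell. It was 741 CPM at day 6, 817 at day 8, 959 at day 11, 932 at day 14 and 683 at day 18. At day 11 7 of the 13 were higher and 1 lower, or 53.8 and 7.69 percent, against 24.1 and 19.9 percent of all tested genes. In CF1038 0 were higher and 7 lower, or 0 and 53.8 percent, against 18 and 20.7 percent. Sperm markers, 31 msp genes, went from 19.2 CPM at day 6 (range 9.01 to 36.3) to 414 at day 14 (range 300.1 to 502) and 1348 at day 18 (range 843 to 1914), and from 17.6 CPM in the second N2 set (7.89 to 33.8) to 35.6 CPM in CF1038 (13.8 to 59.7). The part of these shifts in the col-183 levels was not tested.

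Most of the genes on the list known to be raised by DAF-16 were lower in the mutant. Of 17 tested, 0 were higher, 13 lower and 4 did not pass in CF1038, with a median log2 difference of -1.52. The share lower was 76.5 percent, against 20.7 percent of all tested genes, of which 18 percent were higher. DESeq2 and an unadjusted edgeR p under 0.05 gave 0 higher as well. The lower count was 13 without N2 libraries 1 to 10, 12 without N2 libraries 21 to 30 and 13 with the block. The 3 with the smallest adjusted p were dod-3, sod-3 and ftn-1. The level of dod-3, a gene named for lying downstream of DAF-16, was 17.5 ± 5.39 CPM in N2 and 2.14 ± 0.473 in CF1038 (log2 difference -3.04, SE 0.13, adjusted p = 8.91e-26). The superoxide dismutase gene sod-3 went from 6.12 ± 1.66 to 0.883 ± 0.370 CPM (-2.79, SE 0.15, adjusted p = 2.56e-22), and the ferritin gene ftn-1 from 13.9 ± 5.44 to 1.80 ± 0.644 CPM (-2.95, SE 0.17, adjusted p = 4.26e-20). All 20 CF1038 libraries lay below all 30 N2 libraries for each of the 3.

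With age this list gave 1 higher and 4 lower at day 8, 11 and 1 at days 11 and 14 each, and 5 and 6 at day 18. The shares higher were 5.88, 64.7, 64.7 and 29.4 percent at days 8, 11, 14 and 18, against 5.55, 24.1, 29.8 and 29 percent of all tested genes. The shares lower were 23.5, 5.88, 5.88 and 35.3 percent, against 6.12, 19.9, 26.9 and 28 percent. With all 36 N2 libraries as day 6 the list gave 1 and 10 at day 8 and 6 and 2 at day 11. The gene dod-3 was at 7.47 ± 3.95 CPM at day 6 and 8.47 ± 3.52 at day 8, and reached 161 ± 37.2 CPM at day 11 before 103 ± 26.2 at day 14 and 29.6 ± 10.8 at day 18. For ftn-1 the levels were 9.28 ± 5.24, 8.81 ± 2.04, 38.7 ± 12, 56.1 ± 13.2 and 34.9 ± 11.1 CPM (SD, n = 6 each). Levels at day 8 were thus close to those at day 6 for these 2 genes, but not for all on the list. The list also holds lys-7, which went from 587 to 1353 CPM at day 8 (log2 difference 1.19, SE 0.25, adjusted p = 0.00245). Called lower at day 8 were nnt-1 (-1.29), aqp-1 (-1.30) and mtl-1 (-1.27), of which aqp-1 and mtl-1 did not pass in libraries 4 to 6 alone. For col-183 the day 8 mean was 4.5 times that of day 6. The level of daf-16 itself was 171 ± 15.2 CPM at day 6, 179 ± 11.6 at day 8, 216 ± 8.75 at day 11, 216 ± 25.3 at day 14 and 200.5 ± 15.9 at day 18. Its log2 differences from day 6 were 0.04 (adjusted p = 0.777), 0.32 (0.00116), 0.29 (0.00183) and 0.21 (0.0166), and the last 3 did not pass in libraries 4 to 6 alone.

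Over all 80 libraries the gene whose log2(CPM + 1) was most like that of col-183 was the lysozyme gene lys-7 (chromosome V, 3481432 to 3482600), with a Pearson r of 0.967 among 9744 genes with a mean of at least 5 CPM. The next were abf-2, an antibacterial peptide gene (0.963), C25E10.8 (0.951), Y105C5A.8 (0.948) and the cystatin-type protease inhibitor gene cpi-1 (0.946). These values rest largely on differences between the 7 groups, which all genes share. After subtraction of the group means, r was 0.561 for lys-7, 0.498 for abf-2, 0.346 for C25E10.8, 0.509 for Y105C5A.8 and 0.465 for cpi-1. The most alike collagen was col-181, with 0.827.

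The levels of lys-7 were 587 ± 146.5 CPM at day 6, 1353 ± 215 at day 8, 6407 ± 1486 at day 11, 9617 ± 4014 at day 14 and 3601 ± 1572 at day 18. They were 577 ± 227 CPM in the second N2 set and 133.5 ± 52.0 in CF1038. The order of the groups matched that of col-183 except that the means of both N2 sets at day 6 changed places. On the log2 scale the lys-7 differences were smaller, at 1.19, 3.43, 3.98 and 2.61 over the ages and -2.11 in CF1038. For abf-2 the mean levels were 4.54, 11.5, 26.9, 35.3 and 29.2 CPM over the ages, 8.62 CPM in the second N2 set and 1.5 CPM in CF1038. For cpi-1 they were 264.5, 407, 630, 927.5, 814.5, 294 and 118.5 CPM in the same order.

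**Figure D3:**
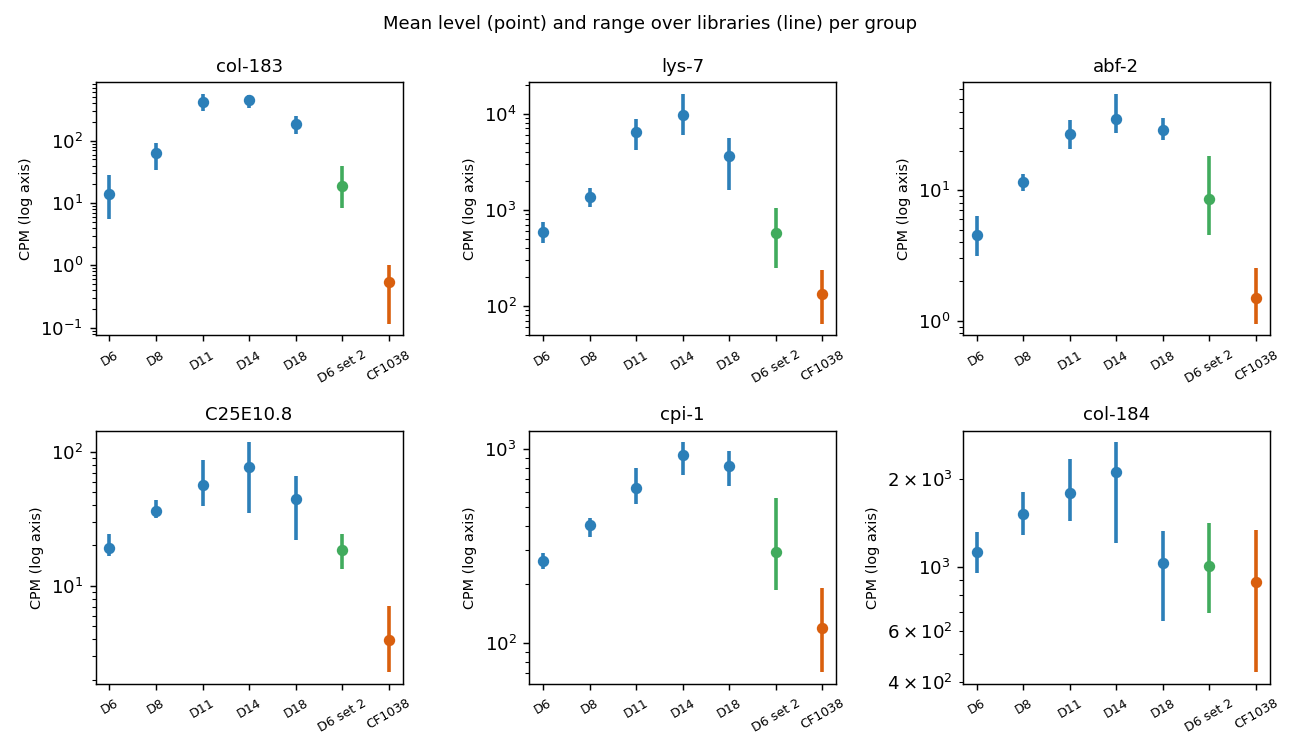
Mean level in CPM on log axes (points) with the lowest and highest library (lines) in the 7 groups for col-183, for lys-7, abf-2, C25E10.8 and cpi-1, which were among the 5 genes most like it over 80 libraries, and for its neighbour col-184. Each of these genes has its lowest mean in CF1038 and its highest at day 14. All 20 CF1038 libraries lie below all libraries of the second N2 set for col-183, lys-7, abf-2 and C25E10.8. For cpi-1 19 of the 20 do, and for col-184 3 of the 20.

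Within the 30 libraries of the second N2 set a different group of genes was most like col-183. These were the transthyretin-related genes ttr-51 (r = 0.899) and ttr-45 (0.881), the dehydrogenase gene dhs-14 (0.879), W01F3.2 (0.875) and the cytochrome P450 gene cyp-35B1 (0.855), out of 9706 genes. The libraries ran with their number, so r was also taken within blocks of 10. In libraries 1 to 10, 11 to 20 and 21 to 30 it was 0.925, 0.845 and 0.279 for ttr-51, and 0.888, 0.837 and 0.365 for ttr-45. It was 0.819, 0.888 and 0.067 for cyp-35B1. For these 3 genes r was lowest in libraries 21 to 30, where col-183 also varied least. For lys-7 the 3 values were 0.794, -0.171 and 0.769.

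The measures of the libraries themselves ran with col-183 to different degrees in this set. For total counts r was 0.152, and for daf-16 it was -0.068. The summed markers gave -0.602 for hypodermis, -0.705 for body wall muscle and -0.725 for neurons, against 0.322 for intestine, 0.478 for the collagen maturation genes and 0.529 for the genes known to be raised by DAF-16. The summed col genes gave 0.025. In the 20 CF1038 libraries, where col-183 rests on at most 41 counts, r was 0.302 for muscle markers, -0.144 for neurons, 0.524 for intestine and 0.564 for the summed col genes. There it was -0.171 for hypodermis, 0.481 for the collagen maturation genes and -0.282 for the genes known to be raised by DAF-16. These correlations share libraries, scaling and depth and are given without a test. In the second N2 set they also share the run with library number, and for the summed markers r was not taken within blocks.

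**Figure D4:**
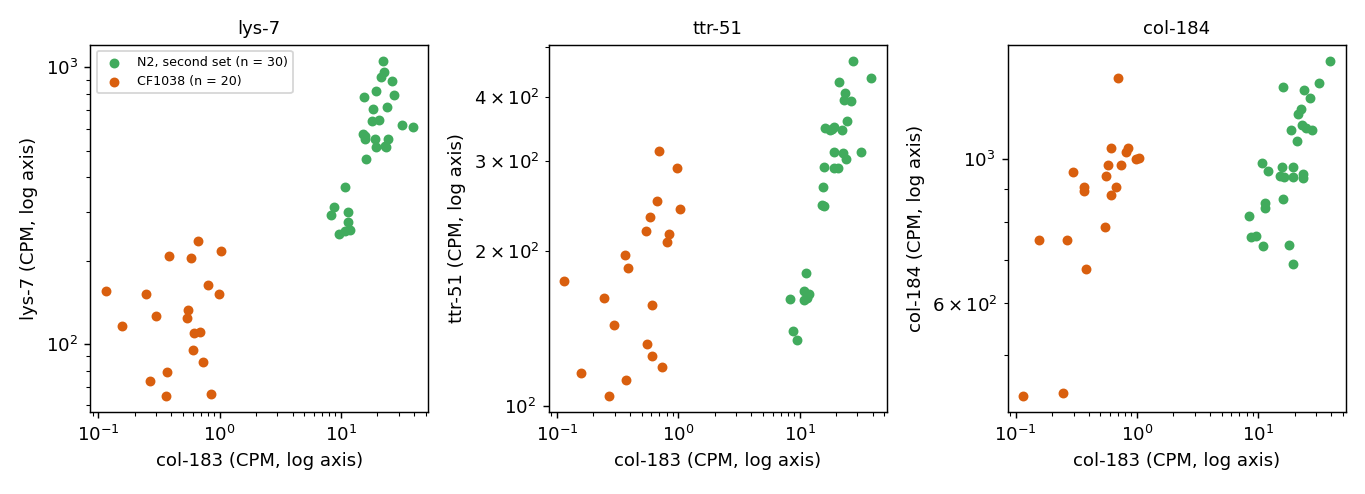
CPM of lys-7, ttr-51 and col-184 (vertical log axes) against CPM of col-183 (horizontal log axis) in the 30 libraries of the second N2 set and the 20 CF1038 libraries. The strains are parted along the col-183 axis in each panel, and within N2 the lower cluster on the lys-7 and ttr-51 axes holds libraries from the start of the numbering.

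The neighbours of col-183 on chromosome X gave smaller differences or hardly any counts. Its nearest protein-coding neighbour is another collagen gene, col-184 (13469455 to 13470409, plus strand), which begins 1690 bases beyond the start of col-183 and points away from it. The level of col-184 was 1125 ± 134 CPM at day 6, 1524 ± 179 at day 8, 1800 ± 371 at day 11, 2115 ± 570 at day 14 and 1030 ± 264 at day 18. Its log2 differences from day 6 were 0.42 (adjusted p = 0.0911), 0.66 (0.00162), 0.86 (4.92e-05) and -0.14 (0.475) by edgeR. The day 8 difference passed with the replicate block (0.42), in libraries 1 to 3 alone (0.42) and with all 36 N2 libraries (0.57). In CF1038 it stood at 886 ± 208 CPM against 1003 ± 193 in N2, with overlapping libraries (log2 difference -0.18, SE 0.09, adjusted p = 0.096). Over the 30 libraries of the second N2 set r between both genes was 0.71. Over the 20 CF1038 libraries, with few counts of col-183, it was 0.715. In N2 the values were 0.876, 0.796 and 0.419 in libraries 1 to 10, 11 to 20 and 21 to 30.

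Beyond col-184 lies tre-4, named as a trehalase gene, at 8.74 ± 0.943 CPM at day 6, 13.5 ± 5.35 at day 14 and 5.72 ± 1.18 at day 18. Its day 14 difference of 0.57 (SE 0.18, adjusted p = 0.00629) was -0.03 in libraries 4 to 6 alone. In CF1038 tre-4 was lower, at 6.11 ± 1.00 CPM against 7.98 ± 1.02 in N2 (log2 difference -0.39, SE 0.06, adjusted p = 1.38e-06). On the other side, F02D10.2 had 0 counts in all libraries and F02D10.3 had 176 in sum. The non-coding gene F02D10.10 overlaps col-183 by 124 bases on the other strand. It had 33 rounded counts over the 80 libraries and at most 4 in 1 library. Whether counting used strand is not given in the sources used here, so reads from the overlap cannot be assigned with certainty, which concerns at most the part of col-183 inside those 124 bases.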

How the data were processed

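The authors deposited expected counts per gene for 80 libraries, and these were the only input. Per the submitters' processing notes, FastQC was used on the reads, STAR 2.7.11b was the aligner, WBcel235 the genome and RSEM 1.3.3 the counter. RSEM shares out reads that match several genes, so a collagen can take reads of a close relative. A library kit or strand setting is not given in the sources used here. A share of 2.73 percent of the table's entries had decimals, and every entry was rounded to a whole count. Of 46904 genes, 23763 had a rounded count. No 2 libraries were identical.

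CPM used TMM scaling over all 80 libraries. Differences came from edgeR 4.0.16 (filterByExpr, TMM, robust quasi-likelihood F test, 2-sided, Benjamini-Hochberg over all tested genes, threshold 0.05), with 1 fit for the 30 time-course libraries and 1 for CF1038 and the second N2 set. These fits share no library, but the 4 comparisons with day 6 share their day 6 libraries. The SE is the absolute log2 difference divided by the square root of F. Likeness is Pearson r of log2(CPM + 1). Every adjusted p of a single gene is from edgeR. Other tools were R 4.3.3 and DESeq2 1.42.0. The edgeR step was tested on simulated data.

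The gene, lists and rules were chosen with earlier results of these data known. Named genes were col-183, daf-16, the 5 genes most like col-183 over 80 libraries and in the second N2 set, 2 protein-coding neighbours on each side, up to 3 list members per direction with the smallest adjusted p at day 8, at day 18 and in CF1038, and collagens called in the direction of col-183 at day 8 and in CF1038. The collagens next largest in each comparison and the gene overlapping col-183 were named after their values were seen. Sequence identity between collagens was not analysed here. The blocks of libraries 1 to 10, 11 to 20 and 21 to 30 for likeness, and the fit without N2 libraries 1 to 10, were chosen after seeing the data. A list counts genes passing the filter, and 4 listed symbols matched no gene.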

Additional observations from a re-analysis of the deposited data

Results flagged for a closer look

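Among 70 groups of 6 libraries examined, 1 had a library far from the rest, where chance gives about 1 in 20. It was ttr-51 at day 8, where library 3 held 631.0 CPM and the next highest held 518.5 CPM, with the lowest at 454.2 CPM. The gap to the next library was 0.636 of the whole range. For col-183, library 3 at day 8 held 88.0 CPM, below library 2 at 90.6 CPM.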

How the results depend on the processing

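The estimates for col-183 kept their sign at every age against day 6 and in CF1038 under all settings run, and moved beyond the spread between libraries only in libraries 4 to 6 alone, to 5.69 at day 11, 5.85 at day 14 and 4.61 at day 18. With each time-course library left out in turn, the ranges against day 6 were 1.99 to 2.50 for day 8, 4.73 to 5.24 for day 11, 4.78 to 5.29 for day 14 and 3.55 to 4.06 for day 18. Between successive ages they ran from 2.62 to 2.88 for day 11 against day 8, from -0.03 to 0.16 for day 14 against day 11 and from -1.33 to -1.15 for day 18 against day 14. The extremes against day 6 came from leaving out day 6 library 4 or 1.

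The col gene counts were less stable. Higher genes in CF1038 numbered 6 with DESeq2, with RLE size factors and without the filter, and 5 with all 36 N2 libraries, against 3. Lower genes numbered 80 with the replicate block on libraries 1 to 20, 78 without N2 libraries 21 to 30 and 7 without N2 libraries 1 to 10, against 41. At day 8 there were 21 higher and 76 lower with all 36 N2 libraries, and 2 and 30 in libraries 4 to 6 alone, against 7 and 47. Leaving out single libraries gave 5 to 9 higher and 43 to 50 lower at day 8, 17 to 22 and 53 to 61 at day 11, 21 to 25 and 64 to 71 at day 14, and 17 to 23 and 73 to 79 at day 18. The cause was not tested.

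Among single genes, 4 estimates changed sign. They were dpy-9 at day 18 with all 36 N2 libraries (-0.69), col-184 at day 18 in libraries 1 to 3 (0.00), and, in libraries 4 to 6, daf-16 at day 8 (-0.02) and tre-4 at day 14 (-0.03).

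The main fits did not take library numbers as pairs. Same-numbered libraries deviated together in part of the pairs between ages, but in most of the pairs between strains. Between ages 27 of 60 pairs correlated over 0.1 (from -0.434 to 0.737), including all 6 of days 14 and 18 (0.268 to 0.737), and between strains 17 of 20 did (from -0.538 to 0.83). Of the 60 and 20, 12 and 5 correlated best with their own number. The main CF1038 fit leaves this structure out, which limits its p-values and counts. With the block on libraries 1 to 20, lower col genes numbered 80 against 41 and lower body-shape collagens 17 against 2. Without N2 libraries 21 to 30 and with no block they numbered 78 and 14. With the replicate block, the col-183 estimates were 2.21, 5.02, 5.10 and 3.85 over the ages and -5 in CF1038, and -1.25 for day 18 against day 14. Of the 5 genes most like col-183, ranking by Spearman rho kept 3 over 80 libraries and 2 in the second N2 set. In CF1038, counts of 5 to 41 limit the precision of col-183, and library-to-library shape there cannot be read closely.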
